A study of Mus musculus with 11 samples.

Results

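Connexins are the proteins that form gap junctions. The 8 connexin genes described here, *Gja1*, *Gja4*, *Gja5*, *Gjb1*, *Gjb2*, *Gjb6*, *Gjc1* and *Gjc3*, were taken by symbol from a table of 22384 mouse genes. That table holds 15 genes with a connexin symbol, and 4 of the other 7 are given further on for comparison. RNA was measured in muscle spindles, the stretch receptors of skeletal muscle, and in extrafusal fibers, the ordinary contractile fibers beside them, to find which genes the spindle uses more than the muscle around it. Both tissues were dissected from the deep masseter, a jaw muscle, of mice with the alleles Piezo2 EGFP-IRES-Cre and Rosa26 tdTomato. Cre made from the *Piezo2* locus turns on a red reporter in intrafusal fibers, capsule cells and sensory neuron bodies, though not in the sensory endings. All libraries of both groups carry these alleles, and no treatment was given. Mice 9, 10, 12, 13 and 16 gave 1 library of each tissue, and mouse 11 gave muscle alone, which makes 5 libraries of spindle and 6 of muscle, named below by tissue and mouse. The mouse is read from the number in each sample title. A spindle library is a bundle of whole spindles, so it mixes intrafusal fibers, nerve endings, Schwann cells, capsule, vessels and connective tissue. The age of these mice was not stated.

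A connexin crosses the membrane 4 times, 6 of them make a hemichannel, and 2 hemichannels in facing membranes make a channel that passes ions and small molecules from cell to cell. The family is split by sequence into alpha (*Gja*), beta (*Gjb*), gamma (*Gjc*) and delta (*Gjd*) genes, and each protein is also named by its mass in kilodaltons, as in connexin 26. Each cell type uses a few of them, and only some pairs dock with each other. Adult skeletal muscle fibers are not coupled by gap junctions, so the connexins of a muscle sample are known from its vessels, nerves, connective tissue and myogenic cells. In peripheral nerve, connexins 32 and 29 are known from myelinating Schwann cells. In vessels, connexins 37 and 40 are known from endothelium, above all that of arteries, and connexin 45 from smooth muscle.

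*Gjb2* (connexin 26) and *Gjb6* (connexin 30) had the largest differences of the 8 genes, and they are neighbors. In GENCODE vM21 (GRCm38), *Gjb6* lies on the minus strand of chr14:57123303-57133611 and *Gjb2* on the minus strand of chr14:57098600-57104702. The gap between them is 18600 bases, and *Gja3* (connexin 46), also on the minus strand, lies 40499 bases beyond *Gjb2*. Because the 2 genes stood out side by side, the sequence before each start site is shown. These are 300-base windows of RefSeq on GRCm38.p6, from 250 bases before to 50 bases after the start, on the minus strand, at chr14:57104653-57104952 for *Gjb2* and chr14:57133562-57133861 for *Gjb6*. Capitals mark the GC box, searched as GGGCGG on both strands.
Gjb2: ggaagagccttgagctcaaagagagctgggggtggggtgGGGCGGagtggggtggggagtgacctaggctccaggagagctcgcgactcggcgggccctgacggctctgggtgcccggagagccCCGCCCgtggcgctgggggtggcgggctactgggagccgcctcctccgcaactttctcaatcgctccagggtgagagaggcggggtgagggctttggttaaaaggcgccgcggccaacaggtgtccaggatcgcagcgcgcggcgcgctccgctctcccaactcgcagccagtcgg
Gjb6: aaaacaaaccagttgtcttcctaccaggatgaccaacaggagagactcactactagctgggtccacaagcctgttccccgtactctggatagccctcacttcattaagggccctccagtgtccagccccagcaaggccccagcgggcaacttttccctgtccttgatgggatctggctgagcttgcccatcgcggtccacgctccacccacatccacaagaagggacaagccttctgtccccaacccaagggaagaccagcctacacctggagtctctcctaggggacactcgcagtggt
The *Gjb2* window held 2 matches to the GC box and the *Gjb6* window none, while 35.7% of 32851 such windows in the same table held at least 1. Neither window held TATAAA, which occurs in 13.6% of all windows on either strand, or CCAAT, which occurs in 37.4%. No match overlapped another. The *Gjb2* window had 27 CG dinucleotides and 70.0% G or C, and the *Gjb6* window had 6 and 57.3%, with a median of 52.7% over all windows. A match of letters is a description and does not show binding, and no measurement of binding or methylation was made here. Of the 8 genes, 7 have such a window, and *Gjc1* is named without one.

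Of the 8 connexins, 5 were higher in spindle and none was lower, with DESeq2 and limma-voom as well. All 8 log2 fold changes were above 0, so none was lower at an unadjusted p under 0.05 either. A call of higher or lower needed an average of 5 or more normalized counts over the 11 libraries, an adjusted p no larger than 0.05 and a log2 fold change of 1 or more in size. A normalized count is a read count divided by the size factor of its library, and every adjusted p below, unless a permutation test is named with it, comes from edgeR's quasi-likelihood test over all 22384 genes with Benjamini-Hochberg adjustment. Among all genes 11.1% were called higher and 1.80% lower, against 62.5% of the 8 connexins called higher. The 8 were chosen with earlier results of these data known, so these shares are descriptions. The median log2 fold change (spindle over muscle) was 1.67 over the 8 connexins and 0.29 over all genes. The 5 genes were *Gjb2*, *Gjb6*, *Gjb1*, *Gjc3* and *Gja5*, and for each of them all 5 spindle libraries lay above all 6 muscle libraries, a pattern found in 10.0% of all genes. *Gja4*, *Gja1* and *Gjc1* were not called, and their groups overlapped. All 8 genes passed the floor on mean count. In bulk RNA, more cells of a type and more RNA per cell cannot be told apart.

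The tissue labels were checked on markers of the spindle. *Myh7b* and *Myh6*, myosins of slow and cardiac type that intrafusal fibers carry, had log2 fold changes of 8.35 (SE 0.54) and 8.42 (SE 0.49), and *Slc17a7*, the glutamate transporter of sensory endings, had one of 5.11 (SE 0.36), all called higher. *Myh4*, a fast myosin known chiefly from ordinary fibers, was called higher as well (3.47, SE 0.46, adjusted p = 2.81e-04). Total counts ran from 8354260 (spindle 9) to 23430654 (muscle 16). The mitochondrial share of reads was 22.6% to 38.2% in spindle and 16.7% to 24.8% in muscle, and was highest in spindle 9. Reads over odorant receptor genes came to 132 to 215 CPM (reads scaled to a common library total) in spindle 9, 10, 12 and 13, to 16.0 in spindle 16, and to 8.78 to 59.3 in muscle. Their part in the differences below was not tested. In spindle 16 and 9 alone, without spindle 10, 12 and 13, the same 5 connexins were called, and spindle 9 itself held 132 CPM of such reads. With spindle 16 alone, assumed to vary as the other libraries do, 4 were called, and *Gja5* kept its size (1.58) but not its call (adjusted p = 0.101).

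**Figure D1:**
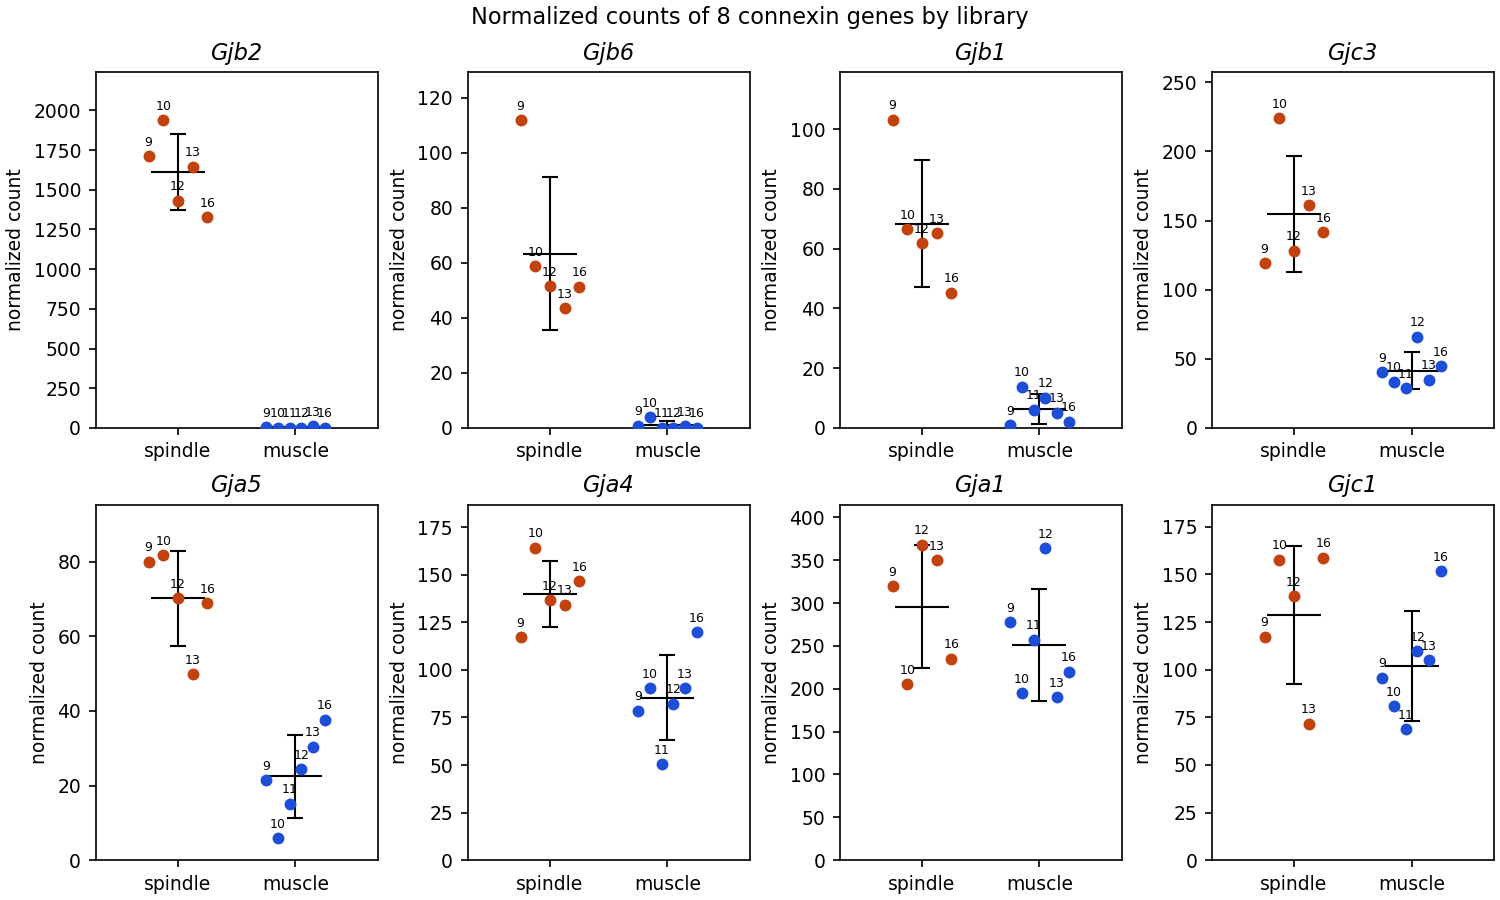
Normalized counts (vertical axis, linear, own scale per panel) of the 8 connexin genes in each spindle and muscle library. Each point is a library labelled with its mouse, and bars give the mean ± SD (n = 5 and 6). In the first 5 panels every spindle point lies above every muscle point, and in the panels of *Gja4*, *Gja1* and *Gjc1* the groups overlap.

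*Gjb2*, whose product couples the supporting cells of the inner ear and is the connexin most often mutated in inherited deafness, was abundant in every spindle library and close to absent from muscle. Its normalized counts were 1709.6 (spindle 9), 1939 (10), 1431 (12), 1645 (13) and 1327 (16), a mean of 1610.4 ± 240.6 (SD, n = 5). In muscle they were 5.78 (mouse 9), 0 (10), 0 (11), 1.02 (12), 9.40 (13) and 0 (16), a mean of 2.70 ± 3.98 (SD, n = 6). The lowest spindle library stood far above the highest muscle library, and 3 muscle libraries held no read of the gene. In reads this was 7784 over the spindle libraries and 21 over the muscle libraries. The log2 fold change was 8.91 (SE 0.48, 95% interval 7.87 to 9.95, adjusted p = 6.47e-08), a fold of 480.3, and only 4 genes had a larger one among those averaging 20 or more normalized counts. Within mice, the difference in log2 CPM was 7.71 (9), 9.97 (10), 8.87 (12), 7.10 (13) and 9.50 (16), so it had one direction in 5 of 5 mice, and its spread comes with muscle libraries of few or no reads.

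*Gjb6*, the partner of *Gjb2* in the inner ear and a connexin of astrocytes and skin, was higher as well, at a much lower level. Spindle libraries held, in normalized counts, 112 (spindle 9), 58.9 (10), 51.5 (12), 43.5 (13) and 51.3 (16), a mean of 63.4 ± 27.7 (SD, n = 5). The muscle libraries held 0.826 (9), 3.94 (10), 0 (11), 0 (12), 0.723 (13) and 0 (16), a mean of 0.914 ± 1.53 (SD, n = 6). Spindle 9 stood above the other spindle libraries, which lay close together, and the groups were far apart. From these came a log2 fold change of 6.37 (SE 0.55, 95% interval 5.23 to 7.51, adjusted p = 4.35e-08), from 290 reads in spindle and 4 in muscle, and it was 6.06 to 7.10 when any 1 library was left out.

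The 2 neighbors did not keep a fixed ratio among spindle libraries. Across the 11 libraries the log2 CPM of *Gjb2* and *Gjb6* had a Pearson r of 0.96, and after the mean of each tissue was removed r was 0.03. The r of 0.03 also covers the muscle libraries, which held 0 to 13 reads of *Gjb2* and 0 to 2 of *Gjb6*. It therefore says little about spindle alone. The libraries share their size scaling, so both values are descriptions. Spindle 9 had the most *Gjb6* but not the most *Gjb2*. The log2 ratio of *Gjb2* to *Gjb6* was 3.91 to 5.18 in spindle and -1.63 to 2.14 in muscle, and the muscle values rest on so few reads that they mostly reflect the prior count of 2 added to each library. The third gene of the cluster, *Gja3*, a connexin of lens fibers, was also called higher, from 3.11 ± 1.72 normalized counts in muscle (SD, n = 6) to 17.7 ± 6.38 in spindle (SD, n = 5), with a log2 fold change of 2.32 (SE 0.51, adjusted p = 0.00174). That call ended without spindle 10, 12 and 13 (1.95, adjusted p = 0.0797) and with spindle 16 alone (2.22, adjusted p = 0.110).

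*Gjb1* and *Gjc3* are the connexins of myelin. *Gjb1* (connexin 32, plus strand of chrX:101376378-101385629) makes channels between the layers of myelin, and its mutations cause an X-linked neuropathy. Normalized counts were 103 (spindle 9), 66.5 (10), 61.8 (12), 65.2 (13) and 45.2 (16), a mean of 68.4 ± 21.2 (SD, n = 5). In muscle they were 0.826 (9), 13.8 (10), 6.04 (11), 10.2 (12), 5.06 (13) and 2.13 (16), a mean of 6.33 ± 4.90 (SD, n = 6). The muscle values varied widely around few reads, and even the highest of them lay well under the lowest spindle value. The log2 fold change was 3.49 (SE 0.41, 95% interval 2.63 to 4.35, adjusted p = 2.79e-06).

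*Gjc3* (connexin 29, minus strand of chr5:137953461-137963098) is known from the inner face of myelin along the axon. Counts normalized by library were 119 (spindle 9), 224 (10), 128 (12), 161 (13) and 142 (16), a mean of 155 ± 41.8 (SD, n = 5). The muscle values were 40.5 (9), 33.5 (10), 28.7 (11), 66.1 (12), 34.7 (13) and 44.7 (16), a mean of 41.4 ± 13.3 (SD, n = 6). Spindle 10 was the highest library and muscle 12 the highest of its tissue, and the groups did not overlap. This gave a log2 fold change of 1.83 (SE 0.22, 95% interval 1.36 to 2.30, adjusted p = 4.26e-06), smaller than that of *Gjb1*.

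Markers of myelinating Schwann cells differed in the same direction. Of 12 listed genes 11 were called higher and none lower, with a median log2 fold change of 2.14, among them *Cldn19* (2.06, SE 0.22), *Mag* (2.12, SE 0.25) and *Cnp* (1.83, SE 0.21). Their summed level was 792 to 1468 CPM in spindle and 122 to 395 in muscle, and none of the 12 was at 0 in either group. With spindle 16 alone 6 of the 12 were called. Their part in the *Gjb1* and *Gjc3* differences was not tested. *Gjb1* rose against *Gjc3* by a log2 ratio of 1.43 (SE 0.50, exact permutation test, two-sided, p = 0.0238, adjusted p = 0.0327 over 11 ratios, of which 9 are reported), in 4 of 5 mice, and this call was lost when any of 8 of the 11 libraries was left out (1.15 to 1.71 over all 11).

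*Gja5* and *Gja4* are the connexins of arterial endothelium. *Gja5* (connexin 40, plus strand of chr3:96904693-97077416) carries signals along the vessel wall. In spindle its normalized counts were 79.97 (spindle 9), 81.7 (10), 70.3 (12), 49.9 (13) and 68.9 (16), a mean of 70.1 ± 12.7 (SD, n = 5). In muscle they were 21.5 (9), 5.91 (10), 15.1 (11), 24.4 (12), 30.4 (13) and 37.6 (16), a mean of 22.5 ± 11.2 (SD, n = 6). The lowest spindle library was not far above the highest muscle library, but the groups did not overlap. The log2 fold change was 1.50 (SE 0.30, 95% interval 0.88 to 2.12, adjusted p = 7.32e-04). In the annotation 2.87% of its exon bases are shared with *Gpr89*, so a few of its reads are uncertain.

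*Gja4* (connexin 37, minus strand of chr4:127311421-127314039) often shares the same cells. The normalized counts were 117 (spindle 9), 164 (10), 137 (12), 134 (13) and 147 (16), a mean of 139.8 ± 17.3 (SD, n = 5). The muscle values were 78.5 (9), 90.5 (10), 50.6 (11), 82.3 (12), 90.4 (13) and 119.9 (16), a mean of 85.4 ± 22.4 (SD, n = 6). Only spindle 9 and muscle 16 crossed. The log2 fold change of 0.64 (SE 0.19, 95% interval 0.24 to 1.04, adjusted p = 0.0137) passed the threshold on p and missed that on size, and the difference was positive in 5 of 5 mice.

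Of general endothelial markers none was called. Of 10 such genes 0 passed in either direction with edgeR, DESeq2 or limma-voom, and 1 (*Cldn5*, a tight junction protein) had an unadjusted edgeR p under 0.05. The log2 fold change of *Cldn5* was 0.64 (SE 0.16, adjusted p = 0.00408), so like *Gja4* it passed the threshold on p and missed that on size. Their median log2 fold change was 0.03, and their summed level was 417 to 779 CPM in spindle and 490.2 to 800.1 in muscle. Of 8 arterial genes 4 were called higher and none lower (median 0.88), led by *Fbln5* (1.09, SE 0.20), *Sema3g* (1.15, SE 0.24) and *Gkn3* (2.21, SE 0.52), with a summed level of 102 to 143 CPM in spindle and 56.3 to 93.9 in muscle. With the mouse as a block, 2 of the 8 were called. Of the 4 not called, *Dll4* was below 0 (-0.52, SE 0.19, adjusted p = 0.0391) and missed the threshold on size. *Sox17* (0.67, SE 0.16), *Hey1* (0.47, SE 0.21) and *Efnb2* (0.28, SE 0.15) were above 0. None of these markers was at 0 in a group, and the part of arterial cells in the *Gja5* difference was not tested.

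Ratios to *Cdh5*, the cadherin of all endothelial junctions, showed how far each connexin left the general marker. *Gja5* was higher against *Cdh5* in spindle by a log2 ratio of 1.73 (SE 0.40), with -5.42 to -4.07 in spindle and -8.17 to -5.83 in muscle (exact permutation p = 0.00216, adjusted p = 0.00794). That p is the smallest this exact test can give with 5 and 6 libraries. *Gja4* was higher against *Cdh5* by 0.74 (SE 0.19, exact permutation p = 0.00433, adjusted p = 0.00952), in 5 of 5 mice. The log2 ratio of *Gja4* to *Gja5* was lower in spindle by 0.98 (SE 0.35), as -0.98 on the signed scale (exact permutation p = 0.00433, adjusted p = 0.00952), in 5 of 5 mice, so the endothelial pair differed by unequal amounts.

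*Gja1* and *Gjc1* were close to equal in both tissues. *Gja1* (connexin 43, plus strand of chr10:56377330-56402513), the most widespread connexin, is known here from fibroblasts, endothelium, smooth muscle and myoblasts. Spindle values, as normalized counts, were 319.9 (spindle 9), 205 (10), 368 (12), 350.3 (13) and 235 (16), a mean of 296 ± 72.0 (SD, n = 5). The muscle libraries held 278 (9), 195 (10), 257 (11), 364 (12), 190.3 (13) and 219.9 (16), a mean of 251 ± 65.3 (SD, n = 6). The groups overlapped almost fully, and the log2 fold change was 0.15 (SE 0.18, 95% interval -0.22 to 0.52, adjusted p = 0.511).

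*Gjc1* (connexin 45, minus strand of chr11:102799579-102819700) is known from vascular smooth muscle and the cardiac conduction system. Its normalized counts were 117 (spindle 9), 158 (10), 139 (12), 71.6 (13) and 159 (16), a mean of 129 ± 36.1 (SD, n = 5). In muscle they were 95.8 (9), 80.7 (10), 68.7 (11), 109.8 (12), 105 (13) and 152 (16), a mean of 102 ± 28.8 (SD, n = 6). Spindle 13 lay among the lowest muscle libraries and muscle 16 among the highest spindle libraries. This gave a log2 fold change of 0.27 (SE 0.22, 95% interval -0.20 to 0.73, adjusted p = 0.347). The intervals of *Gja1* and *Gjc1* leave out a doubling in either direction, and small differences were not detectable with these libraries. Once the median of all genes was set to 0, their log2 fold changes were -0.14 and -0.03.

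Markers of interstitial fibroblasts were in part higher, with 5 of 10 called higher, none lower, and a median log2 fold change of 1.02. The first by adjusted p were *Pdgfra* (1.34, SE 0.17), *Mfap5* (1.85, SE 0.24) and *Lum* (1.53, SE 0.22), and the summed level was 2084 to 3547 CPM in spindle and 717 to 1997 in muscle. *Gja1* fell against *Pdgfra*, a receptor of fibroblasts, by 1.17 on the log2 scale (SE 0.29, exact permutation p = 0.00866, adjusted p = 0.0159), and the ratio was lower in spindle in 4 of 5 mice. Of 10 genes of smooth muscle and pericytes 2 were called higher (*Acta2*, 1.60, SE 0.21, and *Tagln*, 1.49, SE 0.49) and none lower (median 0.01), or 1 higher with the mouse as a block, with 676 to 954 CPM in spindle and 726 to 1107 in muscle. *Abcc9*, of the same list, was below 0 (-0.89, SE 0.14, adjusted p = 8.10e-05) and missed the threshold on size. At an unadjusted edgeR p under 0.05, 3 of these 10 genes were lower and 2 higher. The log2 ratio of *Gjc1* to *Pdgfrb*, a receptor of pericytes, differed by 0.21 (SE 0.17, exact permutation p = 0.245, adjusted p = 0.245).

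**Figure D2:**
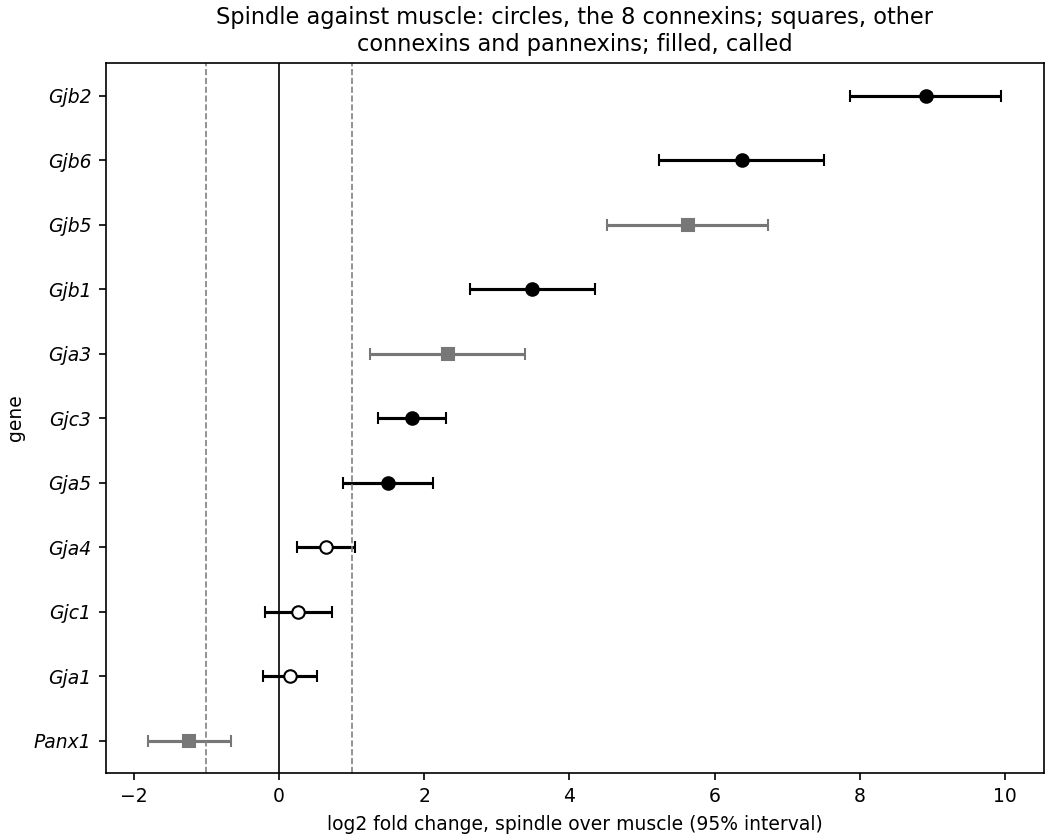
Log2 fold change (horizontal axis, spindle over muscle) with its 95% interval for the 8 connexins (black circles) and for *Gjb5*, *Gja3* and *Panx1*, each averaging 5 or more normalized counts (gray squares). Filled symbols are called, and dashed lines mark a log2 fold change of 1 in either direction. *Gjb2* leads at 8.91, and the intervals of *Gjc1* and *Gja1* include 0.

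Markers of perineurial cells were set beside the 2 beta connexins. The outer capsule of the spindle has been proposed to belong to the perineurial sheath. The paper stained GLUT1, the protein made from *Slc2a1*, in outer capsule cells. It takes perineurial markers in these cells as further support for that origin, and calls for lineage tracing to settle it. All 10 listed perineurial genes were called higher, with a median log2 fold change of 3.73 and a summed level of 297 to 455 CPM in spindle and 24.5 to 39.5 in muscle. The first by adjusted p were *Slc2a1* (3.52, SE 0.16), the glucose transporter of barrier cells, *Itgb4* (4.61, SE 0.20), a basement membrane integrin, and *Tenm2* (4.35, SE 0.29), a teneurin. *Gjb2* exceeded *Slc2a1* in its change, with a log2 ratio of 0.59 to 1.17 in spindle and -5.38 to -2.91 in muscle, a difference of 5.33 (SE 0.44, exact permutation p = 0.00216, adjusted p = 0.00794), in 5 of 5 mice. The muscle libraries held only 0 to 13 reads of *Gjb2*, so the size of this difference depends on the prior count of 2. It was 5.14 to 6.54 over 13 alternatives. For *Gjb6* against *Slc2a1* the difference was 1.08 (SE 0.35, exact permutation p = 0.0238, adjusted p = 0.0327), in 4 of 5 mice. With a prior count of 0.5 it was 2.44, and leaving out any of 9 of the 11 libraries ended its call (0.96 to 1.36 over all 11). The part of perineurial cells in the differences of *Gjb2* and *Gjb6* was not tested beyond these ratios.

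Leptomeningeal fibroblasts, astrocytes and keratinocytes are known for these beta connexins, and salivary and myoblast genes were set beside them. Each of these lists held genes above and below 0. The median log2 fold change was 1.30 for leptomeningeal fibroblasts, 1.18 for astrocytes, 0.36 for keratinocytes and 2.91 for salivary genes. Over all genes it was 0.29. Of 7 genes of leptomeningeal fibroblasts 2 were called higher (*Foxc1*, 1.47, SE 0.23, and *Crabp2*, 4.23, SE 1.07) and 1 lower (*Aldh1a2*, -1.03, SE 0.23), and their summed level was 50.1 to 66.8 CPM in spindle and 68.3 to 86.2 in muscle. The call of *Aldh1a2* held in 9 of 21 alternatives. Of 4 astrocyte genes, *Slc1a3* (2.69, SE 0.47) and *Slc1a2* (2.80, SE 0.94) were higher and *Aqp4*, also a water channel of muscle fibers, was lower (-1.80, SE 0.15), with 28.1 to 35.8 CPM in spindle and 68.3 to 120.2 in muscle, and the 2 calls of higher held together in 10 of 21 alternatives. Of 8 listed keratinocyte genes 4 were among the 22384, and *Krt1*, *Krt5*, *Krt6a* and *Krt14* were not. Of these 4 present, 0 passed with edgeR, with DESeq2 or with limma-voom, and 1 (*Dsg3*, a desmosomal cadherin, 3.33, SE 1.38) had an unadjusted edgeR p under 0.05. The summed level was 6.65 to 8.91 CPM in spindle and 5.75 to 9.15 in muscle. Salivary genes, listed because a gland lies near the masseter, had 2 of 5 called higher, *Bpifa2* (5.95, SE 0.43) and *Muc19* (2.91, SE 0.88). That count of 2 held in 17 of 21 alternatives. *Amy1* was below 0 (-0.93, SE 0.20, adjusted p = 0.00154) and missed the threshold on size. *Car6*, a secreted carbonic anhydrase, had 0 reads in muscle and 12 in spindle. The summed level of the salivary genes was 27.8 to 43.3 CPM in spindle and 20.2 to 38.4 in muscle. In muscle the leptomeningeal, astrocyte and salivary sums came mostly from *Slc47a1* (mean 66.3 CPM), *Aqp4* (83.1) and *Amy1* (25.4), in that order. *Slc47a1* was below 0 (-0.53, SE 0.14, adjusted p = 0.00501) and missed the threshold on size. Of 6 genes of satellite cells and myoblasts, *Mymk* (2.49, SE 0.30) and *Myf5* (2.68, SE 0.29) were called higher and none was called lower (median 0.41). *Cdh15* (-0.55, SE 0.12, adjusted p = 0.00170) and *Myod1* (-0.68, SE 0.16, adjusted p = 0.00320) were below 0 and missed the threshold on size. The summed level was 73.6 to 93.0 CPM in spindle and 78.3 to 99.5 in muscle. The part of any of these cells in the connexin differences was not tested.

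Levels of different genes were compared per kilobase of exon, since a longer transcript gives more reads. Among the 8 members, *Gjb2* was first in spindle with 669 ± 100.02 normalized counts per kb (SD, n = 5), followed by *Gja4* (83.0 ± 10.2), and each was above the next gene in 5 of 5 libraries without overlap of ranges. Then came *Gjb1* (40.0 ± 12.4), *Gjc3* (35.6 ± 9.60), *Gja1* (28.8 ± 7.02), *Gjc1* (25.7 ± 7.22) and *Gjb6* (23.7 ± 10.3) per kb, where each neighbor in the order was above the next in only 3 of 5 libraries and their ranges overlapped. *Gja5* was last (12.2 ± 2.21 per kb), below *Gjb6* in 5 of 5 libraries. Outside the 8, *Gjb5* reached 62.2 ± 47.9 per kb in spindle (SD, n = 5) and, in spindle 9, 144.6 against 69.6 for *Gja4*, while *Gja3* (5.98 per kb) lay below *Gja5*.

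In muscle the order of the 8 was another. *Gja4* was first with 50.7 ± 13.3 normalized counts per kb (SD, n = 6), followed by *Gja1* (24.4 ± 6.36), *Gjc1* (20.4 ± 5.76) and *Gjc3* (9.49 ± 3.06). Of these, *Gja1* and *Gjc1* changed places between libraries, since *Gja1* was above *Gjc1* in 4 of 6. *Gja5* (3.91 ± 1.95), *Gjb1* (3.71 ± 2.87), *Gjb2* (1.12 ± 1.65) and *Gjb6* (0.342 ± 0.572) per kb followed with overlapping ranges, as 3 of 6 libraries had *Gja5* above *Gjb1* and 3 had *Gjb2* above *Gjb6*.

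The connexin transcript pool, summed per kb over the 15 connexin genes, was 997 ± 145 in spindle (829 to 1153) and 119 ± 21.2 in muscle (86.3 to 145.6), with no overlap. *Gjb2* made up 67.2% ± 2.88 of it in spindle (62.6% to 69.9%) and 0.936% ± 1.38 in muscle (0% to 3.21%). *Gja4* made up 8.47% ± 1.60 in spindle and 42.4% ± 6.48 in muscle, and *Gja1* 2.95% ± 0.88 and 21.1% ± 6.0. The mean normalized count of neither gene was lower in spindle, where the pool was larger. The ranks depend on the length used. With the longest principal transcript in place of all exons, a choice made after seeing the data, *Gja1* shrinks from 10257 to 3182 bases and rises to second place in spindle (92.9 ± 22.6 per kb, with a range that overlaps that of *Gja4*) and to first place in muscle (78.8 ± 20.5 per kb). *Gjb2* kept its first place in spindle, with 60.0% ± 3.08 of the pool.

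**Figure D3:**
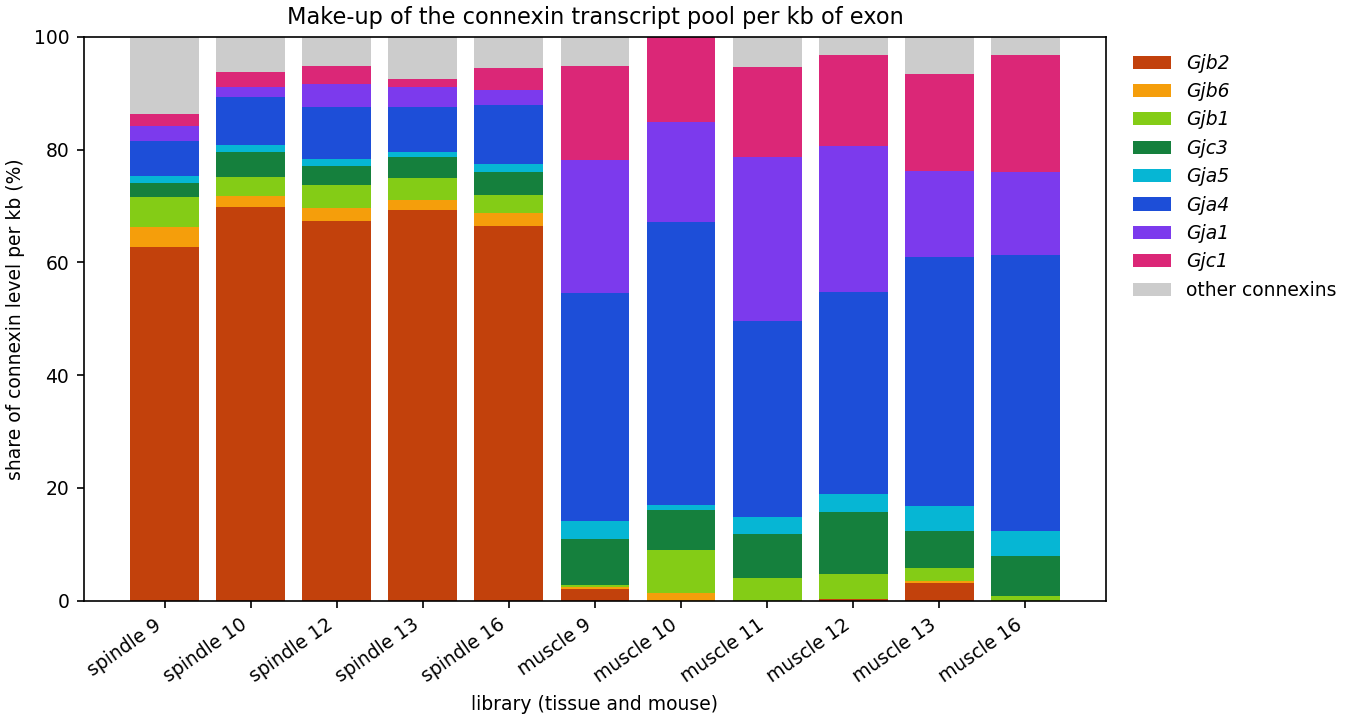
Share of the summed connexin level per kb of exon (vertical axis, percent) taken by each of the 8 connexins and by the other connexins in each spindle and muscle library (horizontal axis). *Gjb2* fills 62.6% to 69.9% of every spindle bar and at most 3.21% of a muscle bar, where *Gja4* (34.8% to 50.2%) is the largest part.

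Of the remaining connexins, *Gjb5* was plentiful and *Gjd4* and *Gjd2* were sparse. *Gjb5* (connexin 31.1, known from epidermis and placenta) was called higher, with 249 (spindle 9), 84.5 (10), 45.0 (12), 102 (13) and 54.7 (16) normalized counts in spindle and 0 to 4.34 in muscle. Its log2 fold change was 5.63 (SE 0.53, adjusted p = 4.56e-07), and spindle 9 stood above the other libraries, as it did for *Gjb6*.

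*Gjd4* (connexin 39, known in the mouse from developing muscle) had 52 reads in spindle and 3 in muscle, a ratio per unit of library size of 23.9 with an exact 95% counting interval of 7.74 to 119.6. Its mean normalized count of 4.29 was under the floor, so it was not called. *Gjd2* (connexin 36, the connexin of electrical synapses between neurons) had 12 reads in spindle and 1 in muscle, a ratio of 16.5 (2.45 to 707). These intervals cover counting error only. Of the listed connexins *Gja6*, *Gja10*, *Gjd3* and *Gje1* were not among the 22384 genes, each of which had at least 6 reads in some library.

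Pannexins form channels of a similar build that open to the outside of the cell and do not, as a rule, join cells. *Panx1*, which skeletal muscle fibers use to release ATP, was the 1 gene of either family called lower, with 26.7 to 84.4 normalized counts in spindle and 82.6 to 177 in muscle. Its log2 fold change was -1.23 (SE 0.27, adjusted p = 0.00174), and spindle 16 lay above the lowest muscle library. With library size as the only scaling the log2 fold change was -0.91 and the gene was not called. It was also not called without spindle 10, 12 and 13 (-1.05, adjusted p = 0.0699) or with spindle 16 alone (-0.47, adjusted p = 0.594). *Panx2* had 0.97 (SE 1.12) and was not called. Of 8 genes of scaffold and trafficking proteins that bind connexins, *Dbn1*, the actin-binding drebrin, was called higher (1.55, SE 0.18) and none lower. Their median log2 fold change was 0.61, and that of *Tjp1*, the scaffold ZO-1, was 0.78 (SE 0.16). *Dlg1* (-0.39, SE 0.13) and *Cnst* (-0.43, SE 0.14) went the other way and were not called. With library size as the only scaling, 4 of the 8 were called higher.

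**Figure D4:**
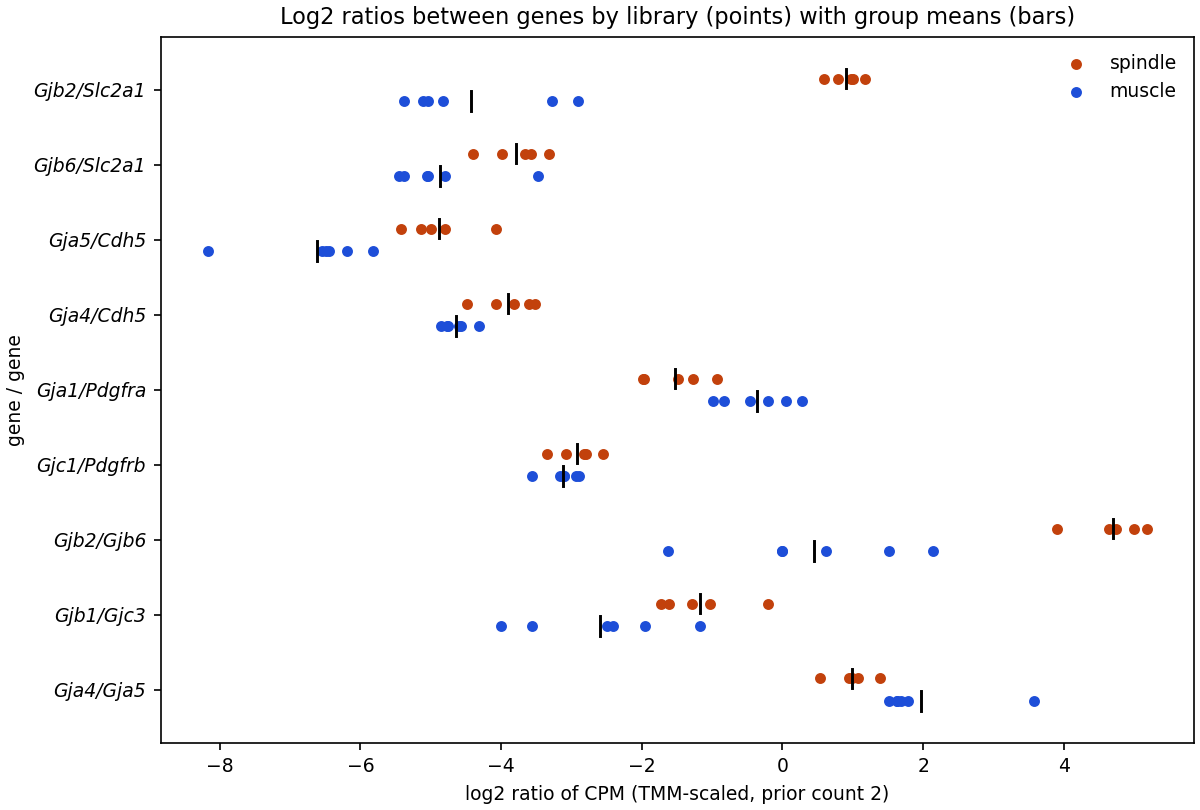
Log2 ratio of CPM (horizontal axis, TMM-scaled, prior count 2) for 9 pairs of genes in each spindle (orange) and muscle (blue) library, with group means as black bars. The groups are apart for *Gjb2*/*Slc2a1*, *Gja5*/*Cdh5*, *Gjb2*/*Gjb6* and *Gja4*/*Gja5*, and they overlap for the other 5 pairs.

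Other genes whose levels followed a connexin most closely were found by the Pearson r of log2 CPM over the 11 libraries, among 12503 genes averaging 20 or more normalized counts. These r are descriptions, since the libraries share tissue and scaling. For *Gjb2* they were *Myh13* (r = 0.998), a fast myosin known from eye muscles, *Fam240b* (0.997) and *Myl10* (0.997), a myosin light chain. Once the mean of each tissue was removed, r was 0.94, 0.92 and 0.94 for these 3. They were picked for a high r in the same libraries, and the muscle libraries held only 0 to 13 reads of *Gjb2*. For *Gjb6* the closest were *Pld3* (0.990), *Nbl1* (0.989) and *Tnni1* (0.987), the slow troponin I. Without the tissue means their r was 0.80, 0.78 and 0.71. For *Gjb1* they were *Slc41a2* (0.974), *Tmem132c* (0.973) and *Fgfr2* (0.972), and for *Gjc3* they were *B230206H07Rik* (0.989), *Il16* (0.978) and *Wscd2* (0.977).

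The genes of vessels and the widespread connexins had other companions. *Gja5* was closest to *Tnfrsf25* (0.970), *Stard13* (0.967) and *Cap1* (0.965), and *Gja4* to *Tmc6* (0.970), *Fads3* (0.965) and *Fgd5* (0.961), an exchange factor of endothelial cells. *Gjc1* was closest to *Mrvi1* (0.941), an IP3 receptor partner in smooth muscle, *Stk10* (0.941) and *Mprip* (0.918), and *Gja1* to *Chmp2a* (0.877), *Arhgap18* (0.872) and *Cyp2u1* (0.858). Among the members themselves, the closest pairs after removal of the tissue means were *Gja4* with *Gjc1* (r = 0.68) and *Gja5* with *Gjc1* (0.67), while *Gja4* with *Gja5* reached 0.35.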

How the data were processed

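RNA-seq of 5 spindle and 6 muscle samples was used. The authors purified polyadenylated RNA, sequenced it single-end, aligned it with STAR 2.4.2a to the GRCm38 build, annotated by GENCODE, and counted uniquely mapped reads. Whether strand was used is not given in the sources used here. The deposited values used are raw read counts per gene, for genes with at least 6 reads in some library, and 22 other per-sample columns (the authors' normalized and regularized log values) were not used. Columns of the authors' own comparison, made with DESeq2 1.16.1 (fold changes, p-values, a mean and a direction), were not used either. The authors left out 1 further spindle sample with few uniquely mapped reads.

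Counts were fitted with edgeR 4.0.16 in R 4.3.3 (TMM scaling, robust quasi-likelihood test, all 22384 genes, no term for the mouse), with DESeq2 1.42.0 for size factors and limma 3.58.1 and DESeq2 as alternatives. SE is the log2 fold change over the root of F. Ratios were taken on TMM-scaled log2 CPM (prior count 2) and tested by exact permutation (two-sided) with scipy 1.17.1. Plots used matplotlib 3.10.9 in Python 3.11.15. The fit was tested on simulated data. Positions and exon lengths are those of GENCODE vM21 by symbol, an earlier release than that of the authors.

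The number in each sample title was read as the mouse, since the paper took both tissues from each mouse, but the titles do not say so. Over 12557 genes, the correlation of the deviations of both tissues of a mouse was 0.08 (mouse 9), 0.31 (10), 0.17 (12), 0.26 (13) and 0.29 (16). Spindle 9 correlated best with muscle 12, and spindle 10, 12, 13 and 16 with the muscle library of their own number. All differences within mice rest on this reading. With the mouse as a block the same 5 connexins were called. Named genes are the 8 members, the other connexins and pannexins, in each other list the 3 called genes with the smallest adjusted p among those reported, the denominators of the ratios and the 3 genes most like each member. *Cldn5*, *Dsg3*, *Tjp1* and the markers that check the labels fall outside this rule and were chosen with their values known. So were *Dll4*, *Sox17*, *Hey1*, *Efnb2*, *Myod1*, *Cdh15*, *Amy1*, *Slc47a1*, *Abcc9*, *Dlg1* and *Cnst*, which were not called. The members and lists were chosen with earlier results of these data known. Some listed genes and the ratios that use them were fitted and counted but are not reported here.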

Additional observations from a re-analysis of the deposited data

Results flagged for a closer look

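Of 40 groups of values checked for a sample far from the others, 6 were picked out, and chance picks about 1 in 20 groups. For *Gjb6*, spindle 9 had 112 normalized counts against 43.5 to 58.9 in the other spindle libraries. For *Gjb5*, spindle 9 had 249 against 45.0 to 102. Spindle 9 was the library with the fewest reads and the highest mitochondrial share, and the part of either was not tested.

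Muscle 10 accounts for the other 4. It had 3.94 normalized counts of *Gjb6* (2 reads) against 0 to 0.826 in the other muscle libraries. Its log2 ratio of *Gjb6* to *Slc2a1* was -3.48 against -5.46 to -4.80, and its ratio of *Gja5* to *Cdh5* was -8.17 against -6.54 to -5.83. Its ratio of *Gja4* to *Gja5* was 3.57 against 1.52 to 1.78. Muscle 10 held 3 reads of *Gja5*, and without it the *Gja5* to *Cdh5* difference was 1.41.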

How the results depend on the processing

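The 5 connexins called higher were 5 under each alternative run (DESeq2, limma-voom, other scalings, a low-count filter, the mouse as a block, each library left out in turn, groups of libraries left out) except with spindle 16 as the only spindle library, where they were 4, and 0 were called lower under all of them. Over all genes, 2493 were higher and 402 lower. The split was 3404 and 140 with library size as the only scaling, which moved the median of all genes from 0.29 to 0.60, and 2077 and 1083 with that median set to 0. Without spindle 10, 12 and 13, 1644 genes were higher, and with spindle 16 alone 892 were higher and 97 lower. With each library left out in turn, 2125 to 2707 were higher and 326 to 535 lower.

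Of the reported log2 fold changes, those of *Gja1* (-0.069 with spindle 16 alone, -0.14 with the median set to 0) and *Gjc1* (-0.027 with the median set to 0) turned, and neither was called. The cause was not tested.

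For the ratios, the block on the mouse (5 pairs) cannot give a p under 0.0625, so no ratio can pass there. The paired differences were 5.21 (*Gjb2*/*Slc2a1*), 1.04 (*Gjb6*/*Slc2a1*), 1.75 (*Gja5*/*Cdh5*), 0.70 (*Gja4*/*Cdh5*), -1.09 (*Gja1*/*Pdgfra*), 4.16 (*Gjb2*/*Gjb6*), 1.56 (*Gjb1*/*Gjc3*) and -1.05 (*Gja4*/*Gja5*). With each library left out in turn, the ranges were 0.96 to 1.36 for *Gjb6*/*Slc2a1* and 1.15 to 1.71 for *Gjb1*/*Gjc3*. Read counts limit *Gjb2*, *Gjb6* and *Gjb1* in muscle.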
